A study of Mus musculus with 11 samples.

Results

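The regions described here are sites that SOX2 and POU5F1 share in mouse epiblast stem cells (EpiSCs). They were chosen by measured peaks: each is an EpiSC SOX2 peak on chromosomes 1 to 19 or X that overlapped an EpiSC POU5F1 peak by at least 1 bp and overlapped no EpiSC ZIC2 or OTX2 peak. Of 63672 SOX2 peaks on these chromosomes, 5094 overlapped a POU5F1 peak, 883 of these also overlapped a ZIC2 or OTX2 peak, and the remaining 4211 are the members. Among the members, 2984 also overlapped an EpiSC POU3F1 peak and 1227 did not, and these subgroups are given separately. The peaks, their scores and their overlaps are therefore a description, whereas the genome sequence, the position relative to genes and the peaks of activin-free cells were not used in the choice.

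All cells were 129/Sv EpiSCs grown without feeders in N2/B27 medium with Fgf2 at 10 ng/ml and activin at 20 ng/ml. The 5 transcription factors (TFs) ZIC2, OTX2, SOX2, POU5F1 and POU3F1 were each expressed by transient transfection of a pCAGGS vector as a fusion with BLRP, a peptide that the co-expressed ligase BirA biotinylates, and chromatin was pulled down with streptavidin. The lists thus record a tagged, exogenous TF under a strong general promoter and not the endogenous protein. A second culture, EpiSCA, differed in that activin was withheld for 18 h before harvest. Each TF had 1 library in each culture, so no value has a replicate error. Intervals given below are 95% intervals of shares (Wilson) or of differences between shares (Newcombe), and they cover counting error over regions, which are not replicates. Read depth is unknown, since the deposited lists give only positions and MACS scores.

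SOX2 is an HMG-box protein that recognises a short A/T-rich sequence in the minor groove and bends DNA, and POU5F1 (OCT4) is a POU-domain protein that recognises the octamer. In pluripotent cells the pair is known for binding next to each other on a composite sequence, a SOX site followed by an octamer, as at enhancers of pluripotency genes. EpiSCs are derived from the epiblast of egg-cylinder-stage embryos and express POU3F1, another POU-domain protein with a similar octamer preference. The sites were therefore searched for the SOX hexamer (any of 4 motifs, of which the first is ACAAAA, the second reads ACAAAG, the third is spelled ACAATA and the last ends in G as ACAATG), for the octamer (ATGCAAAT or ATGCATAT, with no mismatch), for the composite (a SOX hexamer in reverse orientation, 1 base, then the octamer, with up to 2 mismatches in the 14 defined positions) and for alternating runs, here stretches of 20 bp or more that switch between a purine and a pyrimidine at every base. Both strands were read, within 100 bp of a peak midpoint. A composite match can hold an exact SOX hexamer or octamer but, with the mismatches allowed, need not, so these measures overlap in part, and a match is a description of the letters and not of binding.

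The following windows of mm9 show the composite as it occurred at members, with the 15 matched bases in capitals and 30 bases on each side. They are, in each subgroup, the first 3 members with a match when members were ordered by the lower of the percentile ranks of their SOX2 and POU5F1 scores. Names give the protein-coding gene with the nearest transcription start site (TSS), and sequences are written in the direction of the match.
Gm7536, chr3:24252434-24252508, plus strand, with a POU3F1 peak: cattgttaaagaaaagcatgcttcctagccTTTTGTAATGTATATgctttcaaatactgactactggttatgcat
Efna5, chr17:62426413-62426487, minus strand, with a POU3F1 peak: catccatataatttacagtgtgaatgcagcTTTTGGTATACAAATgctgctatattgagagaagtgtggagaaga
Gbe1, chr16:71540201-71540275, plus strand, with a POU3F1 peak: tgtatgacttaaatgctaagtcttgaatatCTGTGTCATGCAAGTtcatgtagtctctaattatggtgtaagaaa
Commd3, chr2:18591573-18591647, plus strand, without a POU3F1 peak: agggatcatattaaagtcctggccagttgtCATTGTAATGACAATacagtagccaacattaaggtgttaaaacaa
Zic4, chr9:91461787-91461861, plus strand, without a POU3F1 peak: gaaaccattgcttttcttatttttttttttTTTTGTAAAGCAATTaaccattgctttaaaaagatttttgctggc
Plcl1, chr1:55493893-55493967, minus strand, without a POU3F1 peak: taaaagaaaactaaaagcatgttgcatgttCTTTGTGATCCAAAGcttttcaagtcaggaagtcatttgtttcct

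The match near Gm7536 had 1 mismatch and the other 5 had 2. Most matches over all members also had 2, since the composite was at 4.99% with up to 2 mismatches and at 0.570% with up to 1. Among these 6 members only that near Plcl1 lay in an intron (of Plcl1, 30.8 kb from its TSS), and the others were intergenic, from 2.31 kb (Commd3) to 979 kb (Gbe1) from the TSS. The midpoints of the SOX2 and POU5F1 peaks were 33 bp apart at Plcl1, 200 bp at Gm7536, 311 bp at Commd3, 554 bp at Gbe1, 1014 bp at Zic4 and 1062 bp at Efna5. Since matches were sought within 100 bp of the SOX2 midpoint, their place near it was set by the search, and they lay 111 to 1139 bp from the POU5F1 midpoint.

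Other members are shown for different sequences at the SOX2 and POU5F1 midpoints. The first member of each subgroup with midpoints over 300 bp apart, a SOX hexamer and no octamer at the SOX2 midpoint, and an octamer (with POU3F1) or an alternating run (without POU3F1) at the POU5F1 midpoint is shown here, from 100 bp before to 100 bp after each midpoint on the plus strand of mm9. Capitals mark SOX hexamers at SOX2 midpoints, the octamer at the first POU5F1 midpoint and the longest alternating run at the second. Both POU5F1 windows also hold a SOX hexamer, left in lower case (acaaaa at Dpp10 and tattgt at Runx1t1).
Dpp10, SOX2 midpoint, chr1:125938543-125938743: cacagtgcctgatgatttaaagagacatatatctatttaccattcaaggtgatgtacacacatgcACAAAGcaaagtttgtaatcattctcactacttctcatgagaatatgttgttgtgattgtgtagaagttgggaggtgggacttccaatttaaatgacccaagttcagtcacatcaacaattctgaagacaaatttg
Dpp10, POU5F1 midpoint, chr1:125939747-125939947: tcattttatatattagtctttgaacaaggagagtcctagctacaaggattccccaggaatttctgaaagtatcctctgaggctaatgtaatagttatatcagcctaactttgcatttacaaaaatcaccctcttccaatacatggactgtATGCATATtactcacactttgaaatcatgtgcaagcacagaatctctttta
Runx1t1, SOX2 midpoint, chr4:13983082-13983282: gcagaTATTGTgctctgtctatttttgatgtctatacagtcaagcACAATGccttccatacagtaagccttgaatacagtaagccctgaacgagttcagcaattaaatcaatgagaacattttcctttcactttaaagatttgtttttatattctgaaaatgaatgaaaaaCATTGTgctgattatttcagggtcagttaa
Runx1t1, POU5F1 midpoint, chr4:13983790-13983990: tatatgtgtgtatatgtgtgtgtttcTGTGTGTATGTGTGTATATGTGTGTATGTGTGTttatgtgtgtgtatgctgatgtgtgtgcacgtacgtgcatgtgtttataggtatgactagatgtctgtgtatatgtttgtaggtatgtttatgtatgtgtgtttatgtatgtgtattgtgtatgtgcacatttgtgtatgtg

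The Dpp10 site, which has a POU3F1 peak, lay in an intron of Dpp10, a gene for an accessory subunit of voltage-gated potassium channels, 3.19 kb from its TSS, with 1204 bp between the midpoints. Its SOX2 peak (chr1:125937809-125939476) had a score of 329.74 and its POU5F1 peak (chr1:125939144-125940550) a score of 752.83. The Runx1t1 site, which has no POU3F1 peak, was intergenic, 167 kb from the TSS of this transcriptional co-repressor gene. Its midpoints were 708 bp apart, and the alternating run at the POU5F1 midpoint was 33 bp long.

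The peaks of most members had separate centres. The distance between the SOX2 and POU5F1 midpoints had a median of 408 bp, with quartiles of 188 and 664.5 bp and a highest value of 3489 bp. It was 393 bp in members with a POU3F1 peak and 443 bp in those without. The midpoints lay up to 100 bp apart in 586 members, farther but up to 300 bp in 1037 and over 300 bp in 2588. The SOX2 midpoint fell inside the POU5F1 peak in 66.0% of members and the POU5F1 midpoint inside the SOX2 peak in 47.3%, and 1 peak lay within the other in 1217 members. The POU5F1 midpoints lay closer to those of POU3F1 peaks. The median distance between POU5F1 and POU3F1 midpoints was 209 bp in the 2984 members with both, against 438 bp between SOX2 and POU3F1.

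**Figure D1:**
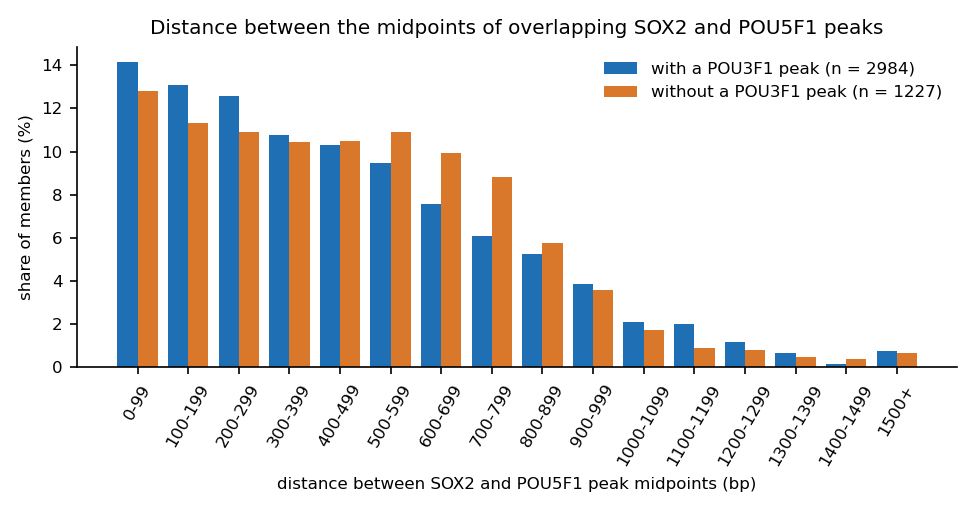
Share of members (%) by the distance between the midpoints of their SOX2 and POU5F1 peaks (bins of 100 bp), for the 2984 members with and the 1227 members without a POU3F1 peak. The share fell from 14.1% (with) and 12.8% (without) in the first bin to 2.11% and 1.71% at 1000 to 1100 bp, with no separate group of members at short distances.

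The scores of the peaks are given as a description, since the same lists chose the members. SOX2 scores had a median of 101.4 at members, 102.8 with and 99.3 without a POU3F1 peak, beside 95.5 over all SOX2 peaks. POU5F1 scores had a median of 182 at members with a POU3F1 peak and 119 at those without, beside 133 over all 62387 POU5F1 peaks on these chromosomes. The POU5F1 peaks of the first subgroup were also wider (median 1142 bp against 937 bp). Across members the SOX2 and POU5F1 scores were unrelated in rank (Spearman's rho 0.0011, n = 4211 regions of the same 2 libraries), whereas POU5F1 and POU3F1 scores had a rho of 0.305 over the 2984 members with both. The members rested on 4065 distinct POU5F1 peaks, 145 of which served more than 1 member, and 100 members lay on more than 1 POU5F1 peak.

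The rule looks at the SOX2 peak only, and the POU5F1 peak could reach beyond it to another TF. Among the 1227 members without a POU3F1 peak, 152 (12.4%) had a POU5F1 peak that overlapped a POU3F1 peak elsewhere along its width. Of all members, 130 (3.09%) had a POU5F1 peak that overlapped an OTX2 peak in this way, and 38 (0.902%) had one that overlapped a ZIC2 peak. At the limit of the rule, 28 members overlapped by 10 bp or less and 38 SOX2 peaks without a ZIC2 or OTX2 peak missed a POU5F1 peak by under 10 bp. The former had a median SOX2 score of 91.0, an octamer at the SOX2 midpoint in 7.14% and an activin-free POU5F1 peak in 82.1%. The latter had 99.6, 2.63% and 71.1%.

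Each TF's own sequence was centred on its own peak. In bins of 50 bp, a SOX hexamer was found in 38.5% of members just downstream of the SOX2 midpoint and in 21.3% at 450 to 500 bp upstream, while around the POU5F1 midpoint it stayed between 23.9% and 25.9%. The octamer was found in 3.80% of members in the bin just upstream of the POU5F1 midpoint and in 1.35% at 450 to 500 bp upstream, and around the SOX2 midpoint in 1.09% to 2.02% of members with no peak at the centre. Alternating runs were at 7.03% beside the POU5F1 midpoint and at 0.380% beside the SOX2 midpoint.

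**Figure D2:**
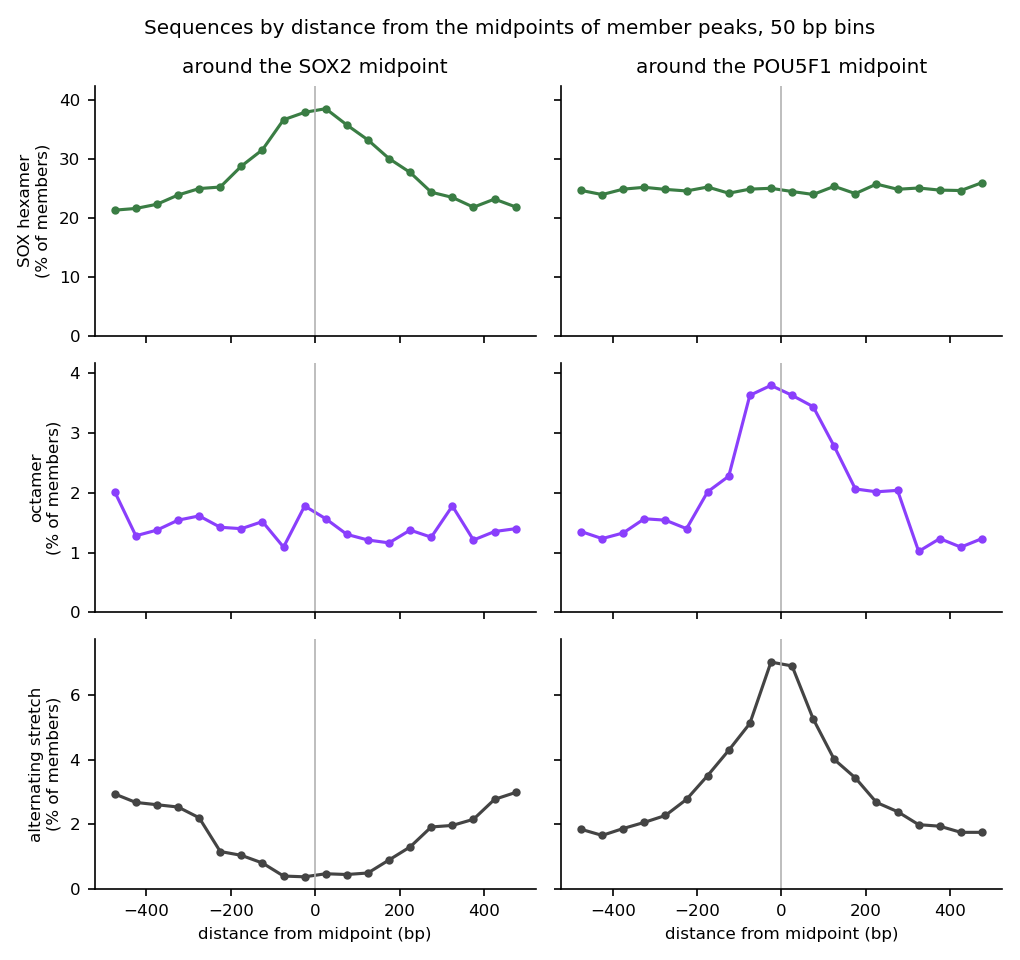
Share of the 4211 members (%) with a SOX hexamer, an octamer or an alternating purine-pyrimidine run of at least 20 bp in bins of 50 bp by distance (bp) from the SOX2 midpoint (left) and from the POU5F1 midpoint (right), plus strand of mm9. A bin counts a hexamer or octamer by its centre and a run if it fits in the bin widened by 15 bp on each side. The hexamer peaks at 38.5% at the SOX2 midpoint, and the octamer (3.80%) and alternating runs (7.03%) peak at the POU5F1 midpoint.

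Within 100 bp of the SOX2 midpoint, 3562 members (84.6%, 83.5 to 85.6) held a SOX hexamer, against 85.9% of all SOX2 peaks and 57.6% of windows centred 1000 bp to either side of the members. Members thus did not exceed SOX2 peaks in general, and the difference from the 42646 SOX2 peaks with no other TF was -2.19 percentage points (-3.36 to -1.08). The octamer was more frequent at members than at other SOX2 peaks. It was found in 230 members (5.46%, 4.82 to 6.19) against 3.06% of all SOX2 peaks, 3.38% of the 6903 SOX2 peaks that shared only a POU3F1 peak, and 2.61% of those with no other TF. The differences from the last 2 classes were 2.09 points (1.30 to 2.92) and 2.85 points (2.18 to 3.59). In the flanks of members the octamer share was 4.41% (3.99 to 4.86), and these flanks can include the POU5F1 midpoint. The flanks of all SOX2 peaks had it at 2.87%, those of peaks sharing only a POU3F1 peak at 3.98% and those with no other TF at 2.62%.

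The composite was found in 210 members (4.99%, 4.37 to 5.69), against 3.6% of all SOX2 peaks and 3.42% (3.05 to 3.83) of the members' flanks. The difference from SOX2 peaks with no other TF, at 2.98%, had an interval of 1.36 to 2.72 points. From SOX2 peaks sharing only a POU3F1 peak, at 4.39%, the difference was 0.60 points with an interval that includes 0 (-0.20 to 1.43). The flanks of these classes were also below those of members, at 2.08% with no other TF and 3.17% sharing only a POU3F1 peak. In the flanks of all SOX2 peaks the composite was at 2.27%. Members with a POU3F1 peak had the composite in 5.26% and those without in 4.32%, a difference of 0.94 points (-0.55 to 2.26). With up to 1 mismatch, the composite was found in 0.570% of members. Alternating runs were rare at SOX2 midpoints, at 0.926% of members and 0.655% of all SOX2 peaks, and more frequent in the members' flanks (5.00%).

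**Figure D3:**
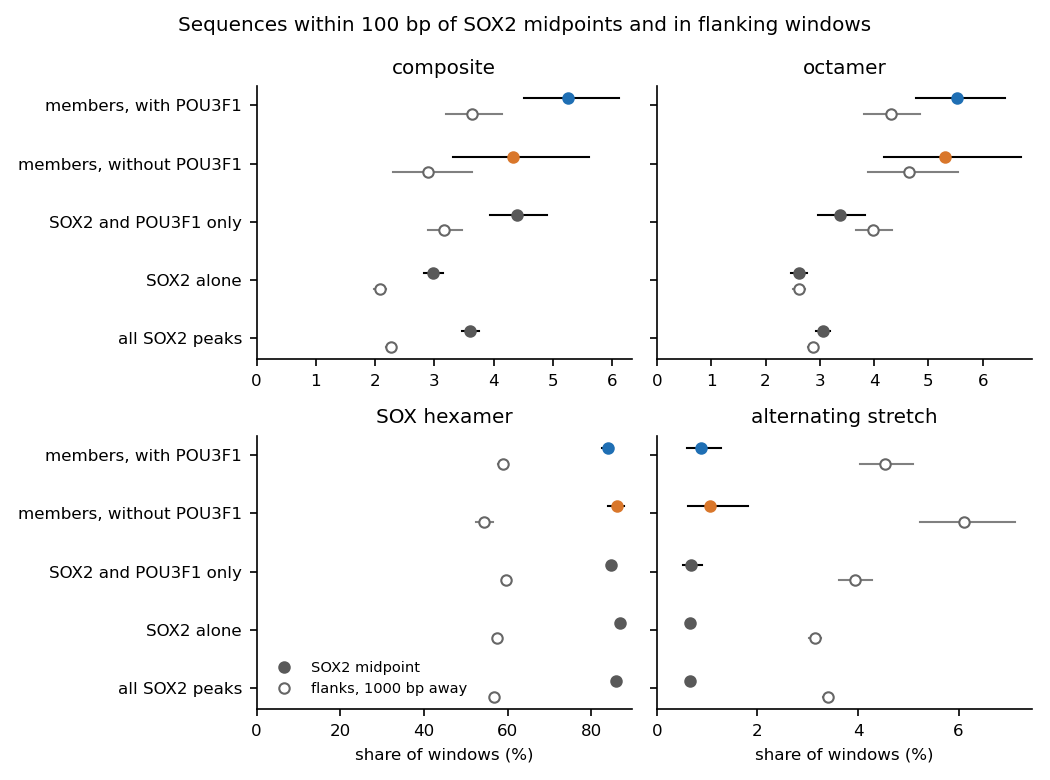
Share of windows (%) with each sequence within 100 bp of the SOX2 midpoint (filled points) and in windows centred 1000 bp to either side (open points), for the 2 subgroups of members, SOX2 peaks sharing only a POU3F1 peak, SOX2 peaks with no other TF and all SOX2 peaks. Lines are 95% Wilson intervals. The octamer share of both subgroups (5.53% and 5.30%) lies above that of the other classes, while the SOX hexamer lies between 84.0% and 86.8% in every class shown.

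At the POU5F1 midpoint of members, 540 (12.8%, 11.8 to 13.9) held an octamer, against 3.50% of windows 1000 bp away. This was below the 18.6% of all POU5F1 peaks, most of which have no SOX2 peak. The octamer was found at the POU5F1 midpoint of 11.7% of members with a POU3F1 peak and of 15.5% without, a difference of -3.76 points (-6.16 to -1.49). The subgroups differed more in alternating runs, which stood at the POU5F1 midpoint of 6.94% of members with and 22.7% without a POU3F1 peak, a difference of -15.8 points (-18.4 to -13.3). Among all POU5F1 peaks the share was 29.6%. Since POU5F1 scores differed between the subgroups, the comparison was repeated within tertiles of the POU5F1 score: runs were at 3.69%, 8.48% and 7.55% of members with a POU3F1 peak from the lowest to the highest tertile, and at 18.7%, 21.5% and 29.4% of those without. The composite was found at 7.46% (6.70 to 8.29) of the members' POU5F1 midpoints, against 6.23% of all POU5F1 midpoints and 2.71% of windows 1000 bp away. A SOX hexamer was found at 65.0% of the members' POU5F1 midpoints, against 53.7% of all POU5F1 midpoints and 60.3% of windows 1000 bp away from those of members.

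The distance between the midpoints separated members by sequence, a split made after the distances were seen. Where the midpoints lay up to 100 bp apart, 66 of 586 members (11.3%) held the composite at the SOX2 midpoint, against 85 of 2588 (3.28%) where they lay over 300 bp apart, a difference of 7.98 points (5.55 to 10.9). The octamer went from 10.9% to 4.17% between the same classes, a difference of 6.75 points (4.32 to 9.62), and at close midpoints a window at one is also largely a window at the other. At the POU5F1 midpoint the octamer did not separate them (11.9% and 13.7%, difference -1.77 points, -4.52 to 1.37). The SOX hexamer at the SOX2 midpoint did not separate them (83.8% and 85.0%, difference -1.22 points, -4.68 to 1.89). At the POU5F1 midpoint, a SOX hexamer was found in 81.4% of the close and 59.3% of the distant class. Alternating runs showed the opposite order, at 1.88% of the close and 16.0% of the distant class, and reached 30.3% in the 795 distant members without a POU3F1 peak.

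**Figure D4:**
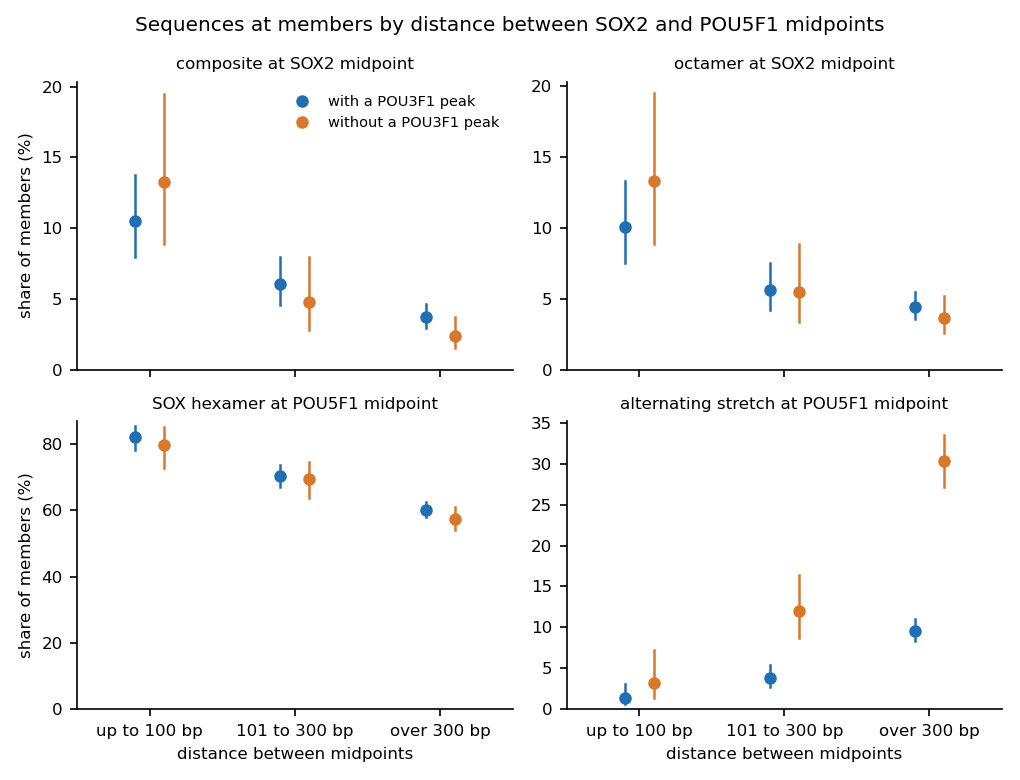
Share of members (%) with each sequence within 100 bp of the midpoint named, in 3 classes of distance between the SOX2 and POU5F1 midpoints, for members with (428, 763 and 1793) and without (158, 274 and 795) a POU3F1 peak. Lines are 95% Wilson intervals. In both subgroups the composite and the octamer at the SOX2 midpoint are highest with midpoints up to 100 bp apart (composite 10.5% and 13.3%), and alternating runs at the POU5F1 midpoint are highest over 300 bp apart (9.59% and 30.3%).

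Members with close midpoints that held the composite with up to 1 mismatch numbered 9 of 586, against 4 of 2588 with distant midpoints. These matches, chosen after their values were seen, are shown for 8 of the 9 in mm9, in the direction of the match and all in capitals.
Rest, chr5:77691363-77691377, minus strand: TATTGTGATGCAAAT
Prune2, chr19:17212836-17212850, plus strand: CTTTGTAATGCAAAG
Cntn5, chr9:12062600-12062614, minus strand: CTTTCTTATGCAAAT
Hace1, chr10:46747982-46747996, minus strand: TATTGTTTTGCAAAT
Hace1, chr10:46545981-46545995, minus strand: CTGTGTGATGCAAAT
Elavl2, chr4:91114736-91114750, plus strand: CTTTGTTATGTAAAT
Samd4, chr14:47609594-47609608, plus strand: CTTTGTAATGGAAAT
Sgcz, chr8:39027885-39027899, minus strand: CATTGTCCTGCAAAT

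The site 3.18 kb from the TSS of Rest, which encodes a zinc-finger repressor of neuronal genes, held the only match without a mismatch among these 8. The SOX2 and POU5F1 peaks there had scores of 89.62 and 434.94, midpoints 67 bp apart and no POU3F1 peak. The sites near Prune2 (1.54 kb from the TSS, in an intron), Cntn5, Elavl2 and Samd4 also had no POU3F1 peak, and both sites near Hace1, over 1 Mb away from it, and the site in an intron of Sgcz had one. SOX2 scores at these 8 ranged from 52.57 (Sgcz) to 182.03 (Prune2). The match near Gm7536 shown above, also with 1 mismatch but with midpoints 200 bp apart, had a SOX2 score of 238.67.

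The arrangement of hexamer and octamer was counted directly, with the octamer allowed 1 mismatch, for both orders, both relative strands and gaps of 0 to 20 bp, 84 arrangements in all. The arrangement of the composite (hexamer first, reverse orientation, gap of 1 bp) occurred at the SOX2 midpoint of 18 members, 1.52 times the mean over arrangements (0.90 to 2.40, exact Poisson interval), and 4 arrangements were more frequent. In members without a POU3F1 peak it occurred 10 times, 3.41 times the mean (1.64 to 6.28), and no arrangement was more frequent. In members with a POU3F1 peak it occurred 8 times, 0.90 times the mean (0.39 to 1.77), with 46 arrangements more frequent. Where the midpoints lay up to 100 bp apart it occurred 8 times, 3.34 times the mean (1.44 to 6.59), and the arrangement with the hexamer first but in the other orientation and a gap of 2 bp occurred as often. At the POU5F1 midpoint the ratio was 1.48 (0.94 to 2.22) in members and 0.75 (0.64 to 0.86) over all POU5F1 peaks, where 77 arrangements were more frequent. The ratio was 1.26 (1.08 to 1.47) over all SOX2 peaks, 1.09 (0.66 to 1.71) at those sharing only a POU3F1 peak and 0.96 (0.76 to 1.19) at those with no other TF. The difference between the subgroups was not tested, and each count is small.

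The same sites were then read in the activin-free lists, which the rule did not use. Of the members, 4098 (97.3%, 96.8 to 97.8) overlapped an activin-free POU5F1 peak, against 15.4% of all SOX2 peaks. Because members were defined by an EpiSC POU5F1 peak and most SOX2 peaks have none, this contrast follows from the rule. POU5F1 peaks themselves are the closer reference. An activin-free POU5F1 peak was found at 98.8% (98.4 to 99.1) of the 4065 POU5F1 peaks of members and at 98.3% of all EpiSC POU5F1 peaks, so members were near the background. An activin-free SOX2 peak was found at 3395 members (80.6%, 79.4 to 81.8), against 77.6% of all SOX2 peaks. The differences from SOX2 peaks sharing only a POU3F1 peak (76.9%) and from those with no other TF (77.2%) were 3.70 points (2.13 to 5.24) and 3.44 points (2.16 to 4.67). Both TFs had a peak at 3298 members (78.3%), POU5F1 without SOX2 at 800, SOX2 without POU5F1 at 97 and neither at 16. The activin-free lists were longer (126908 POU5F1 peaks against 62457, and 87907 SOX2 peaks against 63751). With each cut to the length of the EpiSC list by score, the share of members was 71.6% for SOX2, against 67.8% of all SOX2 peaks, and 85.8% for POU5F1, against 9.26% of all SOX2 peaks. Of the POU5F1 peaks themselves, 86.8% (85.7 to 87.8) of those of members and 83.4% (83.1 to 83.7) of the others were then found again.

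**Figure D5:**
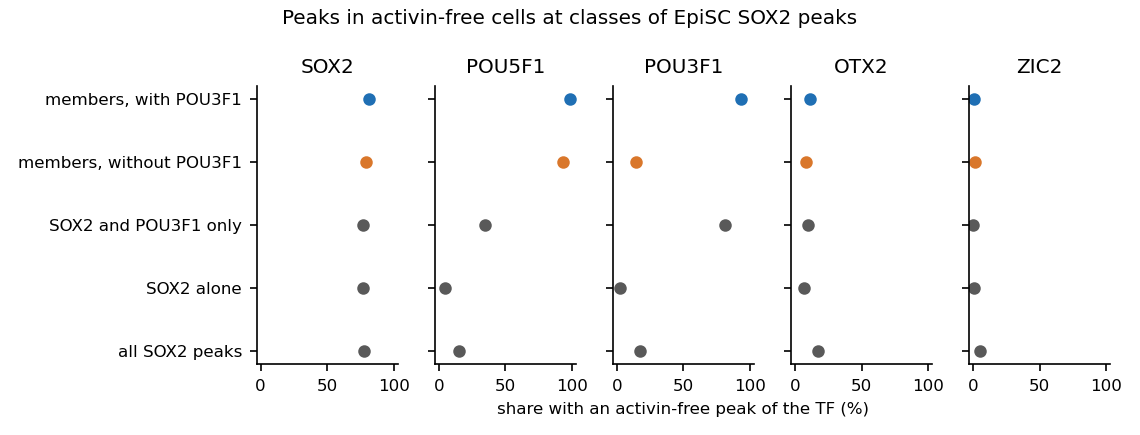
Share (%) of 5 classes of EpiSC SOX2 peaks that overlapped a peak of each TF in activin-free cells, with 95% Wilson intervals mostly narrower than the points. Both subgroups of members are near 80% for SOX2 (81.1% and 79.5%) and above 90% for POU5F1 (98.9% and 93.4%), and they separate for POU3F1 (93.0% and 14.3%).

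The share of SOX2 peaks found again rose with their EpiSC score. In the lowest, middle and highest tertile of SOX2 scores, 60.2%, 81.7% and 96.4% of members had an activin-free SOX2 peak, beside 58.0%, 78.9% and 95.9% of all SOX2 peaks. The share of members lay above that of all SOX2 peaks in each tertile, by less in the highest one. Whether these smaller differences exceed counting error was not tested.

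The subgroups differed in POU3F1 in activin-free cells as their choice by EpiSC POU3F1 peaks would set. An activin-free POU3F1 peak was found at 93.0% of members with an EpiSC POU3F1 peak and at 14.3% of those without, and at 17.1% of all SOX2 peaks. The matching classes without POU5F1 had one at 81.2% (sharing only a POU3F1 peak) and at 2.15% (no other TF). An activin-free POU5F1 peak overlapped the SOX2 peak at 98.9% of the first subgroup and 93.4% of the second, a difference of 5.53 points (4.20 to 7.09). The EpiSC POU5F1 peak overlapped the SOX2 peak by a median of 545 bp in the first subgroup and 410 bp in the second. Whether the POU5F1 peaks themselves were found again was not compared between the subgroups. In tertiles of the POU5F1 score the shares were 98.0%, 98.7% and 99.6% with and 90.3%, 95.5% and 94.9% without a POU3F1 peak, so the order held in each. With the activin-free POU5F1 list cut to the length of the EpiSC list, the shares were 90.2% with and 75.2% without a POU3F1 peak. The activin-free SOX2 share did not separate the subgroups (81.1% and 79.5%, difference 1.64 points, -0.97 to 4.36). An OTX2 peak appeared in the activin-free list at 10.3% of members, against 17.3% of all SOX2 peaks, and a ZIC2 peak at 0.594%, against 4.83%. SOX2 peaks with an EpiSC ZIC2 or OTX2 peak are among all SOX2 peaks and not among the members, and for SOX2 peaks with no other TF the OTX2 and ZIC2 shares were 6.53% and 0.476%. SOX2 peaks sharing only a POU3F1 peak had an activin-free OTX2 peak at 9.75%, and the difference of members from them had an interval that includes 0 (0.51 points, -0.63 to 1.68). Their ZIC2 share was 0.130%, and members exceeded it by 0.46 points (0.24 to 0.75). Between the subgroups, OTX2 was at 11.1% with and 8.31% without a POU3F1 peak, a difference of 2.75 points (0.75 to 4.59). ZIC2 was at 0.402% and 1.06%, a difference of -0.66 points (-1.42 to -0.13). With activin-free peaks of a score of at least 100, the shares of all members fell to 5.32% for OTX2 and 0.190% for ZIC2. A score of at least 100 in the EpiSC lists raised them to 15.8% and 1.07%.

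Members lay mostly far from promoters. A TSS of any annotated transcript was within 1 kb of the midpoint at 73 members (1.73%), against 3.81% of all SOX2 peaks, which include those with a ZIC2 or OTX2 peak. The 1 kb share was 1.69% for SOX2 peaks sharing only a POU3F1 peak (difference 0.04 points, -0.45 to 0.56) and 2.22% for those with no other TF. Within 50 kb a TSS was found at 51.7% of members (50.1 to 53.2), against 59.8% of all SOX2 peaks. The subgroups differed here: 48.0% of members with and 60.6% without a POU3F1 peak had a TSS within 50 kb, a difference of -12.7 points (-15.9 to -9.39), and the median distance was 54187.5 bp and 31064 bp. Members with a POU3F1 peak were like SOX2 peaks sharing only a POU3F1 peak in this respect (47.8%), and members without were nearer to SOX2 peaks with no other TF (58.1%). Midpoints lay in introns of protein-coding genes at 42.1% of members, against 37.8% of SOX2 peaks sharing only a POU3F1 peak (difference 4.36 points, 2.48 to 6.24) and 35.9% of those with no other TF, and in exons at 2.75%, against 2.44% of all SOX2 peaks. Median GC content was 36.3% with and 37.8% without a POU3F1 peak, beside 37.8% over all SOX2 peaks.

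The members were spread over all chromosomes examined, from 4.65% of the SOX2 peaks of chromosome 9 to 7.82% of those of chromosome 5, beside 4211 of 63672 SOX2 peaks in all. They fell into 1458 of the 2536 segments of 1 Mb that held a SOX2 peak, 506 of them with a single member. The densest segment, from 98000001 to 99000000 on chromosome 14, held 24 members among 83 SOX2 peaks and contains Dach1, which encodes a nuclear co-repressor of the retinal determination network. Dach1 (ENSMUSG00000055639.9) was also the gene with most members, 26 of the 96 SOX2 peaks assigned to it by nearest TSS, 24 of them with a POU3F1 peak. Other genes with many were Pcdh7 (protocadherin, 21 members), Odz2 (teneurin, 20), Lrp1b (LDL receptor-related protein, 19) and Erbb4 (neuregulin receptor, 18). Epha7, Magi2 and Robo1 had 17 each. All members near Pcdh7, Lrp1b and Erbb4 had a POU3F1 peak. Gene length varied among them, from 2058 kb for Lrp1b and 1076 kb for Erbb4 to 154 kb for Epha7, and between 10.1% (Odz2) and 27.1% (Dach1) of the SOX2 peaks of the 5 genes from Dach1 to Erbb4 were members. Because these genes were picked for their number of members, the choice itself favours shares above that of all SOX2 peaks (4211 of 63672). In all, 1978 protein-coding genes had a member by nearest TSS, 1185 of them exactly 1, out of 11016 with a SOX2 peak.

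Of 14 pluripotency regulators, 2 had a member: Foxd3, a forkhead factor of the epiblast and neural crest, with 1, and Jarid2, a Polycomb-associated factor, with 2. These 3 members were 0.0712% of members, and 51 SOX2 peaks, 0.0801% of all, were assigned to the 14 genes. No member was assigned to Nanog, Pou5f1, Sox2, Fgf4 or Utf1. A site shared by SOX2 and POU5F1 that also had a ZIC2 or OTX2 peak is left out by the rule. Such sites were not counted by gene, so this absence does not show that the TFs share no site there. The Foxd3 site (chr4:99325312-99326016) lay 2674 bp from the TSS and had a SOX2 score of 85.04, a POU5F1 score of 606.55 and a POU3F1 score of 216.15, with midpoints 187 bp apart. An activin-free POU5F1 peak overlapped the SOX2 peak of this site, and no activin-free SOX2 peak did. None of 11 annotated genes of naive pluripotency had a member, where 53 SOX2 peaks were assigned to these genes (0.0832% of all). This reference includes SOX2 peaks with a ZIC2 or OTX2 peak, which the rule leaves out. Whether the count of 0 falls below that share was not tested. Of 16 genes of the epiblast and of gastrulation, Otx2, a homeobox factor of the epiblast and anterior neural plate, had 2 members. The Otx2 site with the higher SOX2 score (chr14:49302745-49303501) lay 15804 bp from the TSS, with scores of 262.24 for SOX2 and 473.36 for POU5F1 and no POU3F1 peak. Activin-free peaks of both SOX2 and POU5F1 overlapped its SOX2 peak.

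Most genes on a chosen list of SOX and POU genes, which does not hold all of either family, had a shared site. Of 16 annotated genes of this list, 12 had a member, 24 members in all (0.570% of members, beside 0.347% of all SOX2 peaks). The 16 genes had 221 SOX2 peaks between them. Among all genes with a SOX2 peak, 1978 of 11016 had a member. Sox6, an SRY-related factor without an activation domain of its own, had 7, of 48 SOX2 peaks. Single members were near Sox3 (6445 bp from the TSS), Sox14 (78313 bp), Sox11 (24589 bp) and Sox4 (140008 bp). Sox21, a repressor of the SOXB2 group, had 2 members with POU3F1 peaks, the nearest 1096 bp from its TSS. Pou4f1, a POU factor of sensory neurons, had a member without a POU3F1 peak 684 bp from its TSS (chr14:104867460-104868339), with scores of 194.87 for SOX2 and 419.34 for POU5F1 and midpoints 117 bp apart. The Sox14 site (chr9:99697348-99698497) had scores of 543.38 and 520.03 and midpoints 83 bp apart. None of the sites with the highest SOX2 score at these 12 genes held the composite. With 4.99% of all members holding it, 12 sites are too few to set these genes apart.

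Of 28 genes of neural development, 11 had a member, 49 in all (1.16% of members, beside 0.878% of all SOX2 peaks). Cdh2 (N-cadherin) had 12, Zeb2 (a zinc-finger repressor) 9, Zic4 and Nr2f2 (an orphan nuclear receptor) 7 each, Gli3 (a Hedgehog effector) 4 and Meis1 (a TALE homeobox factor) 3. Many of these are distant. The nearest member lay 22303 bp from the TSS of Cdh2, 22512 bp from that of Zeb2, 146035 bp from that of Zic4 and 574624 bp from that of Nr2f1. The closest to a TSS in this group was at Meis2, 3324 bp away (chr2:115871164-115872062), with scores of 170.65 for SOX2 and 191.13 for POU5F1, midpoints 17 bp apart and no POU3F1 peak. The Tcf7l2 site (chr19:55617339-55618875), 198193 bp from the TSS, had a SOX2 score of 523.43, a POU5F1 score of 827.35 and a POU3F1 score of 172.42.

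The members with the highest scores for both TFs were ordered as for the sequences above. With a POU3F1 peak, the first 5 were nearest to Gm4066, Faf1, 2610305D13Rik, Ralyl and Shisa6, and without one, to Sox6, Fmo4, Cep70, Adcy8 and Runx1t1. The first of these, chr13:84891429-84892364, had a SOX2 score of 495.5, a POU5F1 score of 1836.37 and a POU3F1 score of 587.02, lay 273 kb from the TSS of Gm4066, and had midpoints 1403 bp apart. At Faf1 and 2610305D13Rik the POU5F1 peaks were 9553 and 4401 bp wide and the POU3F1 score was 3100, and neither had a SOX hexamer at the SOX2 midpoint, which the other 8 had. The Sox6 site (chr7:122812197-122813696), in an intron 155 kb from the TSS, had scores of 424.28 and 1177.02. Its midpoints were 2000 bp apart, and there an octamer stood at the POU5F1 midpoint. None of the 10 held the octamer or the composite at the SOX2 midpoint. All 10 had SOX2 and POU5F1 peaks in activin-free cells, the 5 of the first subgroup also had a POU3F1 peak there, and the 5 of the second had none over the SOX2 peak. At Sox6, however, a POU3F1 peak lay within the POU5F1 peak outside the SOX2 peak, from 2172 to 3122 bp beyond the SOX2 midpoint in EpiSCs and from 1984 to 3317 bp in activin-free cells.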

How the data were processed

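Reads had been aligned by the authors to mm9, with Bowtie2 per the submitters' notes, and peaks called by MACS1.4 with the input as reference (the input itself was not analysed here). The deposited lists give, for each peak, a position and a score, the MACS p-value as minus 10 times its log10, which was at least 50 in the EpiSC lists. They hold no reads, so depth is unknown.

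Overlaps of at least 1 bp were counted in all 10 lists, and sequences were read from mm9 (NCBIM37) and genes from GENCODE vM1. Positions are counted from 1. Each member was assigned to the protein-coding gene with the nearest TSS. In all, 53 Newcombe intervals were computed and 32 excluded 0: 14 (8 excluding 0) against SOX2 peaks that shared only a POU3F1 peak, 14 (13) against SOX2 peaks that shared no peak, 18 (7) between the subgroups and 7 (4) between close and distant midpoints. They were not adjusted for their number. Regions named are the 5 of each subgroup with the highest lower-of-both percentile ranks of SOX2 and POU5F1 score, sequences are the first 3 with the composite, and genes are those with most members and those of 5 lists (pluripotency, naive pluripotency, epiblast and gastrulation, SOX and POU, neural development). Some genes under this rule are not reported here. Members and lists were chosen with earlier results of these data known. The overlap, sequence and spacing steps were tested on simulated data. Python 3.11.15, numpy 2.4.6, pandas 2.3.3, scipy 1.17.1 and matplotlib 3.10.9 were used.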

Additional observations from a re-analysis of the deposited data

How the results depend on the processing

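Of 113 alternatives, 59 stayed within the interval or spread of the reported value and 54 moved beyond it. Of them, 16 were added after seeing the data. A minimum score of 100 in all EpiSC lists left 1593 members, 1136 with and 457 without a POU3F1 peak, of which 93.6%, 98.2%, 74.9%, 15.8% and 1.07% had activin-free SOX2, POU5F1, POU3F1, OTX2 and ZIC2 peaks and 4.39% the octamer. With an overlap of at least 50% of the narrower peak, 708 members had no POU3F1 peak, the composite was at 5.98%, the octamer at 6.29%, and activin-free POU5F1 and POU3F1 peaks at 98.6% and 73.4%. Without ZIC2 or OTX2 peaks within 1000 bp, activin-free OTX2 and POU3F1 peaks were at 7.85% and 71.6% and TSSs within 50 kb at 49.7%. SOX2 peaks under 1000 bp gave 86.3% for the SOX hexamer and 77.0% for activin-free SOX2. With 1 member per 100 kb, activin-free SOX2 and POU3F1 peaks were at 82.7% and 67.7%. TSSs of protein-coding transcripts alone were within 50 kb at 35.1%. Within 250 bp of the SOX2 midpoint, the SOX hexamer, composite, octamer and alternating run were at 98.2%, 12.2%, 12.7% and 4.32%. At the overlap midpoint, the hexamer, composite and run were at 77.0%, 5.84% and 1.95%. At the POU5F1 midpoint (chosen after seeing the data), the hexamer, composite, octamer and run were at 65.0%, 7.46%, 12.8% and 11.5%. The composite was at 0.570% with up to 1 mismatch and 29.8% with up to 3, the octamer at 47.1% with 1, and runs of at least 30 bp at 0.451%. With midpoints up to 100 bp apart (chosen after seeing the data), the composite, octamer and activin-free SOX2 and POU5F1 peaks were at 11.3%, 10.9%, 83.3% and 96.8%, and the spacing ratio was 3.34. An activin-free score of at least 100 gave 60.7% for SOX2, 94.8% for POU5F1, 64.8% for POU3F1, 5.32% for OTX2 and 0.190% for ZIC2. An overlap of at least 50% with activin-free peaks gave 79.4% for POU5F1, 59.3% for POU3F1, 7.27% for OTX2 and 0.380% for ZIC2. Lists cut to equal length gave 71.6% for SOX2, 85.8% for POU5F1 and 9.26% for OTX2, and were not run for ZIC2 and POU3F1, whose activin-free lists are the shorter ones. The causes of these shifts were not tested. No paired analysis was possible because each TF had 1 library in each culture. Read depth behind the lists is unknown, and its part in a missing peak was not tested.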
